A study of Caenorhabditis elegans with 2 samples.

Results

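The genes described here are the translation factors and aminoacyl-tRNA synthetases of Caenorhabditis elegans. They were chosen by gene name from the WBcel235 annotation: protein-coding genes named eif-, eef-, ife-, ifg-, iff- or iftb-, and synthetases named by 1 letter, ars- and a number. The rule found 71 of 19973 protein-coding genes, which are 33 initiation factor genes, 6 elongation factor genes and 32 synthetase genes. For each gene the promoter was examined for binding of T20F7.1, a protein with a C2H2 zinc finger domain, by chromatin immunoprecipitation with sequencing. The animals, of strain OP754, were collected as L4 larvae at 48 hours, with both sexes pooled. They carried the transgene wgIs754, in which T20F7.1 is fused to TY1, EGFP and 3xFLAG tags beside a wild-type unc-119 copy, in an unc-119 (tm4063) mutant background. Cultures were synchronised by bleaching and starvation of L1 larvae, and precipitation used an antibody to GFP. There was 1 group of 2 biological replicates, given in the labels as separate biosamples, and whole animals were used, so binding cannot be assigned to a tissue. No list from an untagged strain or other control was analysed here.

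Translation begins when initiation factors bring the initiator tRNA, the mRNA and the small ribosomal subunit together at a start codon. eIF3 is the many-subunit scaffold of this step, eIF2 carries the initiator tRNA as a GTP complex and eIF2B recharges eIF2 with GTP, while eIF4E and eIF4G bind the mRNA cap and recruit the ribosome. Elongation factors then deliver charged tRNAs (eEF1A, recharged by eEF1B) and move the ribosome along (eEF2). Aminoacyl-tRNA synthetases charge each tRNA with its amino acid. This machinery as a whole is used in nearly all growing cells, which need not hold for each gene or paralog.

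The sequences shown first are those under the summits, the positions of highest signal, of members whose peaks the results turn on. Each is 101 bases of the WBcel235 (ce11) sequence centred on the summit and read 5′ to 3′ on the strand of the gene. Capitals mark matches on either strand to 6 words of 6 letters (ACGCGC and ACGCAG, then GACGCA and ACACTC, and also CGTCTC and AGAGAC) that were frequent at all peaks of the study, members included, or to the 8-letter word ACNCTCCG. The 8-letter word was chosen after the members' sequences were seen, N stands for any base, and the word contains ACACTC where N is A. The first 3 belong to 3 of the 6 strongest member peaks, the next pair to the paralogous eEF1A genes and the last to a synthetase gene.
eif-3.B, chrII:14795139-14795239, plus strand: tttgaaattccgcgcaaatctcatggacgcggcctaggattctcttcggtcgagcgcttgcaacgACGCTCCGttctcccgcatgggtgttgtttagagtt
iff-2, chrII:8561375-8561475, minus strand: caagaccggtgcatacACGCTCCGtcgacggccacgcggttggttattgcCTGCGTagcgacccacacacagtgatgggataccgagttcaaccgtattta
eif-2Bgamma, chrII:6967732-6967832, minus strand: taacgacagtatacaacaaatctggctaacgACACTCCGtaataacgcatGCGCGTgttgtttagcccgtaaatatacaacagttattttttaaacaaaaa
eef-1A.1, chrIII:6972048-6972148, minus strand: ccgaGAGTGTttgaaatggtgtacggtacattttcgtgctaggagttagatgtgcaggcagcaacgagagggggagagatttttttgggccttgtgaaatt
eef-1A.2, chrX:7823229-7823329, plus strand: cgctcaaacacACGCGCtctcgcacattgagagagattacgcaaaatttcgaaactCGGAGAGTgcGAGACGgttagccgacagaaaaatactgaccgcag
aars-1, chrII:11464587-11464687, minus strand: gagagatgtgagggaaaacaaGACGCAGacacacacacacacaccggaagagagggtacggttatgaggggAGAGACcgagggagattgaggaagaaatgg

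The 8-letter word with its neighbouring bases is shown for 5 of the 7 members that hold it near the summit. It is read on the strand that carries ACNCTCCG, which is in capitals.
eif-3.B, chrII:14795198-14795217, plus strand: gcaacgACGCTCCGttctcc
iff-2, chrII:8561446-8561465, minus strand: gcatacACGCTCCGtcgacg
eif-2Bgamma, chrII:6967788-6967807, minus strand: ctaacgACACTCCGtaataa
eef-1A.2, chrX:7823279-7823298, minus strand: tctcgcACTCTCCGagtttc
ife-5, chrII:12280502-12280521, minus strand: acaacgACGCTCCGaaattc

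A gene was counted as having a peak when a summit lay from 500 bp upstream to 100 bp downstream of its annotated start. Among the translation factor and synthetase genes, 18 of 71 (25.4%) had a peak that the authors retained by the irreproducible discovery rate (IDR) procedure, against 1460 of all 19973 protein-coding genes, a background of 7.31%. The IDR list holds 2586 peaks, which were the 2586 strongest of 30000 pooled candidate regions, so a retained peak's signal value is the pooled one. Each replicate has its own list of 30000 candidates. For a candidate in both replicates, at any position in the window, the members' share was 26 of 71 (36.6%) against a background of 18.9%. For a pooled candidate it was 27 of 71 (38%) against 26.3%. In all, 36 of 71 members (50.7%) had no candidate in the window in either replicate. The same share was not counted over all genes, so this count has no background. The lists give ranks and heights but no read counts, so depth is unknown and a gene without a candidate is only one below the lists' limits.

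The 3 classes differed in how many genes had a retained peak and in how high the peaks were. Elongation factors had one at 5 of 6 genes, initiation factors at 8 of 33 and synthetases at 5 of 32, against 7.31% of all genes. Of the 6 elongation factor genes, 1 had a peak outside other coding genes' windows, against 871 of all 19973 genes. In a window of 250 bp upstream to 50 bp downstream, 3 of the 6 had a peak, against 4.54% of all genes. The median pooled signal value was 1125 at the 8 initiation factor peaks (101 to 1970), 442 at the 5 elongation factor peaks (326 to 1253) and 208 at the 5 synthetase peaks (136 to 299). Over all protein-coding genes with a retained peak the median was 189. No synthetase peak reached the level of the weakest elongation factor peak. The classes follow gene names, so the initiation class also holds eif-4A3 and the eIF5A genes, of which iff-2 had a pooled value of 1190. The classes were not tested against each other, since their genes share the same 2 replicates.

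**Figure D1:**
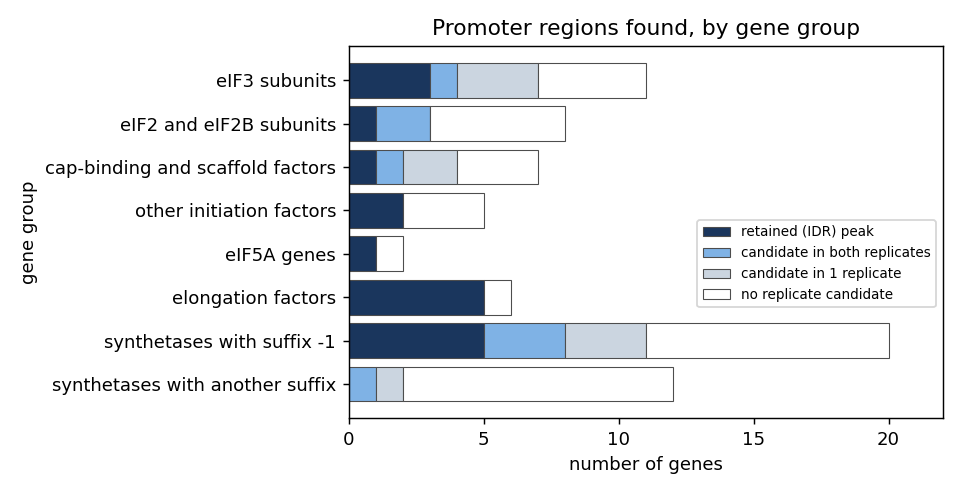
Number of genes (horizontal axis) in each of 8 groups formed by gene name, split by whether the promoter window held a retained IDR peak, candidates in both replicates, a candidate in 1 replicate or none. The elongation factor bar is retained peaks for 5 of 6 genes, of which 1 had a peak outside other coding genes' windows. Of the 12 synthetases with a suffix other than -1, 10 had no candidate. Over all protein-coding genes 7.31% had a retained peak, and the share with no candidate was not counted.

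Of the 11 eIF3 genes, 3 had retained peaks. eif-3.E had the strongest peak of all members. Its signal values were 1024 in replicate 1 and 929 in replicate 2, and the pooled value of 1970 ranked 26 among the 2586 peaks. eif-3.B had 755 in replicate 1 and 802 in replicate 2. eif-3.C had lower values of 203 and 221 in replicates 1 and 2. Replicates thus lay close together at each of the 3, whose pooled values of 1970, 1564 and 430 were far apart.

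The other 8 eIF3 genes had no retained peak. eif-3.G had candidates of 32.2 in replicate 1 and 51.9 in replicate 2 and a pooled rank of 3960. eif-3.F and eif-3.K had a candidate in replicate 2 alone, of 21.7 and 35.7. eif-3.H had 82.1 in replicate 1, rank 1113 there, and no candidate in replicate 2 or in the pooled list. eif-3.D, eif-3.I, eif-3.J and eif-3.L had no candidate in either replicate. Genes for subunits of 1 complex therefore ranged from among the strongest peaks of the study to no candidate.

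Of the 8 genes for eIF2 and eIF2B subunits, eif-2Bgamma alone had a retained peak. Its product is the partner of the catalytic epsilon subunit in eIF2B. The signal values were 529 in replicate 1 and 537 in replicate 2, with a pooled value of 1061 and a summit 134 bp upstream of the gene start. A second retained summit lay 333 bp upstream, in the 3′ UTR of the neighbouring gene C15F1.5, with 106 in replicate 1 and 30.4 in replicate 2. The replicates were therefore much less alike at the second summit than at the first. eif-2Bdelta (41.8 in replicate 1, 42.3 in replicate 2) and eif-2Balpha (28.5 in replicate 1, 47.6 in replicate 2) had weak candidates in both. At eif-2Bdelta the summits of these candidates were apart, at -179 bp in replicate 1 and -56 bp in replicate 2. eif-2Bbeta, eif-2Bepsilon and the eIF2 genes eif-2alpha, eif-2beta and eif-2gamma had none.

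Of the 7 genes named ife-, ifg- or eif-4, 1 (14.3%) had a retained peak, against 7.31% of all protein-coding genes. ife-5, an eIF4E gene, had the weakest retained peak of all members, with 52.3 in replicate 1, 53.3 in replicate 2 and a pooled value of 101. The weakest peak in the IDR list has 95.6. Its summit lay in the 3′ UTR of Y57A10A.29, the gene just upstream on the same strand. ifg-1, the eIF4G gene, had candidates of 45.4 in replicate 1 and 22.7 in replicate 2. ife-2 had 74.1 in replicate 1 alone and ife-3 had 37.6 in replicate 2 alone. ife-1, ife-4 and eif-4A3, an RNA helicase gene, had no candidate.

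Among the remaining initiation factors, 3 genes had a peak. eif-6, whose product keeps the ribosomal subunits apart, had 598 in replicate 1 and 620 in replicate 2. iff-2, 1 of 2 genes for eIF5A, which helps ribosomes through difficult stretches of peptide, had 583 in replicate 1 and 601 in replicate 2. The other eIF5A gene, iff-1, had no candidate in either replicate. eif-2A, for an initiation factor distinct from eIF2, had 93.2 in replicate 1 and 72.6 in replicate 2, lower than at eif-6 and iff-2. eif-1, eif-1.A and eif-2D, which act in start codon selection or non-canonical initiation, had no candidate.

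Of the 6 elongation factor genes, 5 had a retained peak. At 4 of the 5 the summit also lay in a second coding gene's window. This left 1 of 6 genes with a peak of its own, against 3 of 11 eIF3 genes and 871 of all 19973 genes. In a narrower window of 250 bp upstream to 50 bp downstream, 3 of the 6 had a peak, against 4.54% of all genes. In that window 1 of 2 eIF5A genes had a peak. The 2 eEF1A genes, which deliver charged tRNAs, both had one. eef-1A.1 had 644 in replicate 1 and 604 in replicate 2, and eef-1A.2 had 159 in replicate 1 and 157 in replicate 2. The peak of eef-1A.1 was thus the higher in both replicates. eef-1G, for the gamma subunit of the exchange complex, had 327 and 269 in replicates 1 and 2. eef-1B.1, for an exchange factor subunit, had 239 in replicate 1 and 204 in replicate 2, whereas its paralog eef-1B.2 had no candidate. eef-2, for the translocation factor, had 188 in replicate 1 and 214 in replicate 2.

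The synthetase peaks were weaker, and all 5 were at genes with the suffix -1. These were 5 of 20, against 0 of 12 with another suffix and 7.31% of all protein-coding genes. With that background, 0 among 12 genes cannot be told from the share of all genes. The suffix does not give the compartment: RefSeq describes aars-1 as mitochondrial and aars-2 as cytoplasmic. nars-1, for asparagine, had 138 in replicate 1 and 162 in replicate 2. mars-1, for methionine, had 128 and 146 in replicates 1 and 2, with a second summit 495 bp upstream of 28.7 in replicate 1 and 83.6 in replicate 2. kars-1, for lysine, had 99.8 in replicate 1 and 112 in replicate 2. These 3 were somewhat higher in replicate 2. aars-1, for alanine, had 100.4 in replicate 1 and 61.1 in replicate 2, and vars-1, for valine, had 75.7 in replicate 1 and 57.3 in replicate 2. The last pair was lower in replicate 2, and the log2 ratio of replicate 2 to replicate 1 at aars-1, -0.72, was the most uneven of the 18 peaks.

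Below the retained list, iars-1 (isoleucine) came closest, with a pooled value of 93.1 at rank 2719, from 28.0 in replicate 1 and 61.9 in replicate 2. hars-1 (histidine) had 36.3 in replicate 1 and 53.2 in replicate 2. wars-1 (tryptophan) had 38.0 in replicate 1 and 23.8 in replicate 2, and dars-2 (aspartate) had 20.4 in replicate 1 and 36.4 in replicate 2. At hars-1, iars-1 and dars-2 replicate 2 was the higher, and at wars-1 replicate 1. ears-2 had 115 in replicate 1, rank 661 there, but no candidate in replicate 2 or the pooled list. Single weak candidates were found at fars-1 in replicate 1 and at dars-1 and gars-1 in replicate 2, all between 18.0 and 27.7. No candidate was found at cars-1, ears-1, lars-1, pars-1, qars-1, rars-1, sars-1, tars-1, yars-1, aars-2, fars-2, fars-3, iars-2, lars-2, nars-2, pars-2, rars-2, sars-2 or yars-2.

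Regions such as those of ears-2, eif-3.H and ife-2 were uncommon in the lists. Of the 2586 strongest regions of replicate 1, 57 (2.2%) had no summit within 250 bp in either the replicate 2 or the pooled list, and such regions lay in the windows of 3 of 71 members (4.23%), against 34 of all protein-coding genes (0.17%). Of the 2586 strongest of replicate 2, likewise 57 had no summit within 250 bp in the replicate 1 or pooled list, and these were at 0 members, against 36 of all protein-coding genes (0.18%).

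**Figure D2:**
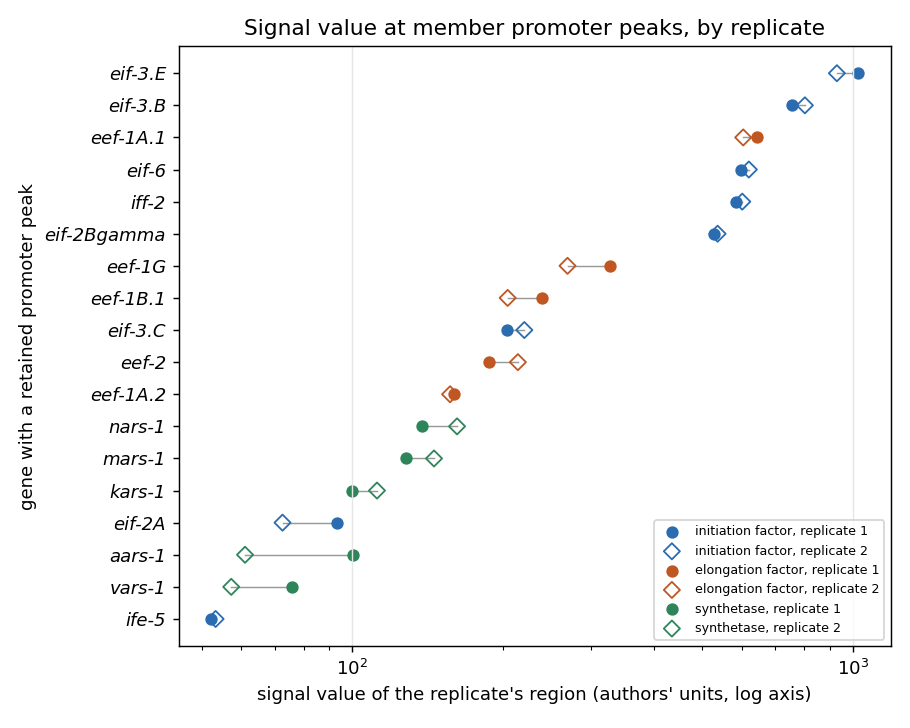
Signal value in the authors' units (log axis) of the region matched within 100 bp of each retained summit, for replicate 1 (filled circles) and replicate 2 (open diamonds), at the 18 genes with a retained peak. Values run from 1024 and 929 at eif-3.E down to 52.3 and 53.3 at ife-5, and the replicates are farthest apart at aars-1.

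Across the 18 peaks the median log2 ratio of replicate 2 to replicate 1 was 0.03 with an SD of 0.25 and a range of -0.72 to 0.23. Over all 2442 IDR peaks matched in both replicates the median was 0.03 and the SD 0.47. Among members, 10 peaks were higher in replicate 2 and 8 in replicate 1. The 13 members in the strongest 20% of IDR peaks had ratios from -0.28 to 0.23, and the 5 weaker ones from -0.72 to 0.17. Summits of the replicates lay within 25 bp of the retained summit at the 13 stronger members and within 41 bp at the 5 others. The pooled value was close to the sum of the replicate values at the members (median ratio 1.00).

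The members' peaks were also high among promoter peaks. The median pooled signal value was 417 (quartiles 224 and 1158) over the 18 members and 189 (quartiles 127 and 401) over all 1460 protein-coding genes with a retained peak. In the strongest 20% of IDR peaks were 13 of the 18 (72.2%), against 515 of the 1460 (35.3%). The authors' −log10 q was at least 2 at 16 of the 18 (88.9%), against 899 of the 1460 (61.6%), and vars-1 and ife-5 were the exceptions among members. Both sets depend on the same peaks, so these shares are given without a test. The highest member value, 1970, was below the highest of all genes, 6064.

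**Figure D3:**
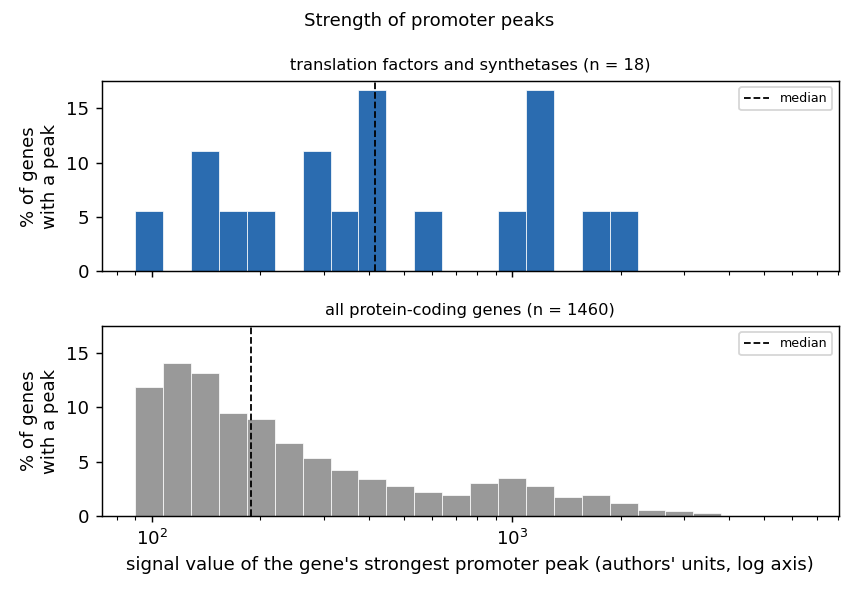
Percent of genes with a retained promoter peak (vertical axis) by the signal value of the strongest peak in the window (log axis, authors' units), above for the 18 translation factor and synthetase genes and below for all 1460 genes. Dashed lines are the medians of 417 and 189. The members' values extend from 101 to 1970, with 6 of the 18 above 1000.

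All 18 summits lay upstream of the gene start, at a median of 203 bp (quartiles 77 and 318.5 bp), against a median of 190 bp over the 1460 genes, of which 1370 had the summit upstream. The distances varied widely: the summit was 6 bp upstream at eef-1B.1, 15 bp at eef-2, 23 bp at vars-1, 35 bp at eef-1G and 58 bp at iff-2. It was farthest at eef-1A.1 (386 bp), eef-1A.2 (375 bp), kars-1 (339 bp), nars-1 (333 bp) and eif-6 (330 bp). Members with near and far summits occur in each class. Of the summits, 16 were intergenic, 1 was in the 3′ UTR named above and that of eef-1B.1 was in an exon of the non-coding gene F54H12.9.

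On ce11 the retained regions of the eIF3 genes were chrI:10642206-10642721 for eif-3.E, chrII:14794950-14795432 for eif-3.B and chrI:9979787-9979986 for eif-3.C. Those of the other initiation factors were chrII:6967580-6968118 for eif-2Bgamma, chrII:12280285-12280724 for ife-5, chrI:12968378-12968847 for eif-6, chrII:8561187-8561637 for iff-2 and chrII:10416312-10416751 for eif-2A. The elongation factor regions were chrIII:6971810-6972320 for eef-1A.1, chrX:7823198-7823307 for eef-1A.2, chrV:10965544-10965832 for eef-1G, chrIII:7973285-7973493 for eef-1B.1 and chrI:9163378-9163597 for eef-2. The synthetase regions were chrI:7090175-7090614 for nars-1, chrIV:11635620-11635878 for mars-1, chrII:7072534-7072973 for kars-1, chrII:11464417-11464856 for aars-1 and chrV:8031168-8031607 for vars-1. Their widths ran from 110 bp at eef-1A.2 to 539 bp at eif-2Bgamma, with a median of 440 bp.

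At 7 of the 18 members (38.9%) the summit also lay in the window of a second protein-coding gene on the other strand, against 589 of the 1460 (40.3%), so those peaks cannot be given to the member alone. The other genes were rfc-4 (replication factor C) at eef-1A.1, pbs-2 (a proteasome subunit) at eif-6, ctf-4 at eef-1G, aco-2 (mitochondrial aconitase) at eef-1B.1, clsp-1 (Claspin) at eef-2, nduf-6 (a respiratory complex subunit) at nars-1 and rga-1 at aars-1. In 6 of the 7 the summit was nearer to the member, though at eif-6 by 330 against 336 bp and at nars-1 by 333 against 345 bp. At eef-1A.1 it was nearer to rfc-4 (155 bp), and it lay 13 bp upstream of the microRNA gene cel-mir-5549. The 11 peaks in no other coding gene's window were those of eif-3.E, eif-3.B, iff-2, eif-2Bgamma, eif-3.C, eef-1A.2, mars-1, kars-1, eif-2A, vars-1 and ife-5.

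**Figure D4:**
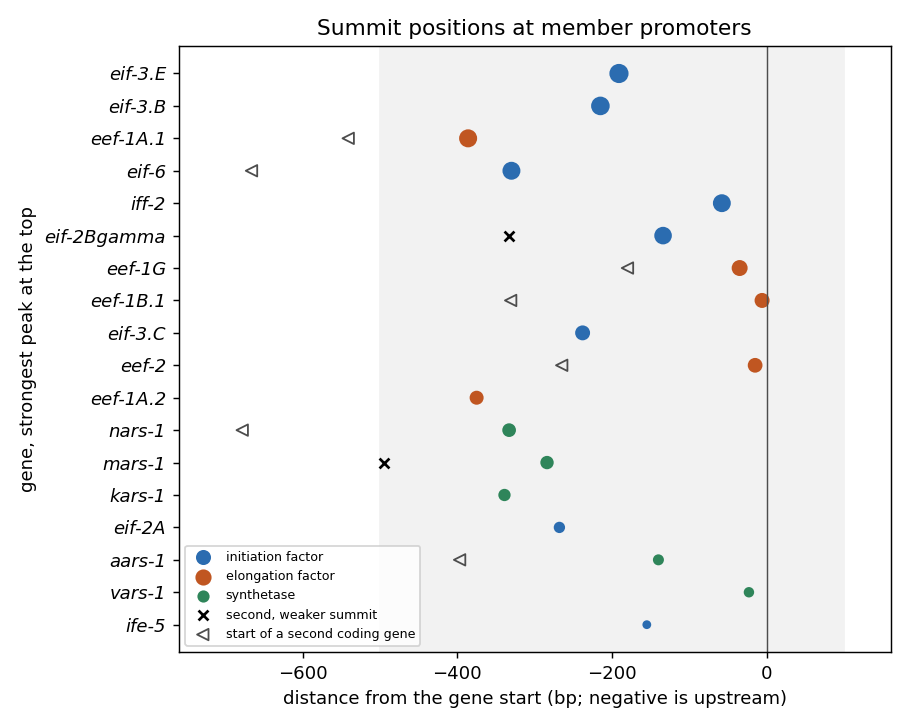
Distance in bp of the retained summit from the gene start (horizontal axis, negative upstream) for the 18 genes, ordered by signal value with the strongest at the top and point area growing with the log of that value. Crosses are the second, weaker summits of eif-2Bgamma and mars-1, triangles the start of a second coding gene whose window holds the same summit, and the shaded band the promoter window. Summits reach from 6 to 386 bp upstream and none lies downstream of the start.

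Members differed from the genome in how their promoters are laid out. A protein-coding gene on the other strand started within 500 bp upstream at 19 of 71 members (26.8%), against 9.25% of all genes, and a same-strand gene ended there at 18 (25.4%), against 18%. With a facing start, a retained peak was present at 4 of the 19 members, close to the share of all genes so placed (391 of 1848, 21.2%). With a same-strand gene ending there it was present at 4 of the 18, against 7.16% of all genes so placed. With no coding gene in the 500 bp upstream, 10 of 31 members had a retained peak, against 5.68% of all such genes. These include eef-1A.1, eif-6 and nars-1, whose summits also lay in the window of a facing gene that starts farther upstream. Another gene lay across this stretch at 3 members, and 0 of these had a peak, against 4.59% of all such genes. At the same-strand arrangement the peaks were those of eif-2Bgamma, eif-3.C, vars-1 and ife-5. Whether any of these genes is transcribed from a promoter farther upstream, as in an operon, was not tested.

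By chromosome, members had retained peaks at 5 of 21 genes on I, 7 of 17 on II, 2 of 12 on III, 1 of 10 on IV, 2 of 8 on V and 1 of 3 on X. Over all genes the shares were 9.83%, 7.16%, 9.55%, 7.41%, 5.55% and 5.79% in the same order. The members' share was above that of all genes on each chromosome, with counts too small to rank the chromosomes.

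The sequences under the summits, printed above, shared short words unevenly. Within 50 bp of the summit, 11 of the 18 members' peaks (61.1%) held at least 1 of the 6 listed words, against 36.1% of all 2586 IDR peaks and 61.9% of the strongest 20% of them. The same length of sequence centred 203 bp upstream of every protein-coding gene start held a word at 14.6%. The most frequent were ACGCGC at 5 members (eif-3.E, eif-2Bgamma, eif-3.C, eef-1A.2 and kars-1), against 8.97% of IDR peaks and 2.4% of all promoters, and ACACTC at 4 (eif-3.E, eef-1A.1, eif-6 and eif-2Bgamma), against 11.5% and 3.58%. ACGCAG and GACGCA, which overlap in 5 letters, were each at 3 members, against 9.78% and 9.16% of IDR peaks and 2.89% and 3.11% of promoters. CGTCTC was at eef-1A.2 and AGAGAC at aars-1 only, against 10.4% and 12% of IDR peaks and 3.52% and 4.82% of promoters. In the strongest 20% of IDR peaks, where 13 of the 18 member peaks lie, the shares were closer to the members' or above them. ACGCGC was at 27.8% of members and 20.3% of that set, and ACACTC at 22.2% of members and 29.8% of the set. ACGCAG was at 16.7% of members and 16.4% of the set, and GACGCA at 16.7% and 15.3%. CGTCTC and AGAGAC were each at 5.56% of members, against 13% and 12.6% of the set.

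The 8-letter word ACNCTCCG was found within 50 bp of the summit at 7 of the 18 members (38.9%). It was at 5 of the 6 strongest (eif-3.E, eif-3.B, eif-6, iff-2 and eif-2Bgamma), the exception being eef-1A.1, and at eef-1A.2 and ife-5. Its share was 5.45% of all IDR peaks, 23% of the strongest 20%, 0.774% of the weakest 20% and 0.671% of all promoters. At 6 of the 8 initiation factor peaks, 1 of the 5 elongation factor peaks and 0 of the 5 synthetase peaks the word was present. The matches at eif-3.E, eif-6 and eif-2Bgamma begin with the ACACTC already counted there, so the counts of these words overlap. Since the word was picked from these members' sequences, its share among them is a description, and the absence of a word says only that its letters are not in the window. In the 20-base stretches printed above, the bases just before the word were aacg at eif-3.B, eif-2Bgamma and ife-5 and differed at iff-2 and eef-1A.2. The stretches of eif-3.E and eif-6 are not printed, so this covers 5 of the 7 members with the word. No word of either kind was found at 5 members (eef-1B.1, eef-2, nars-1, mars-1 and vars-1).

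**Figure D5:**
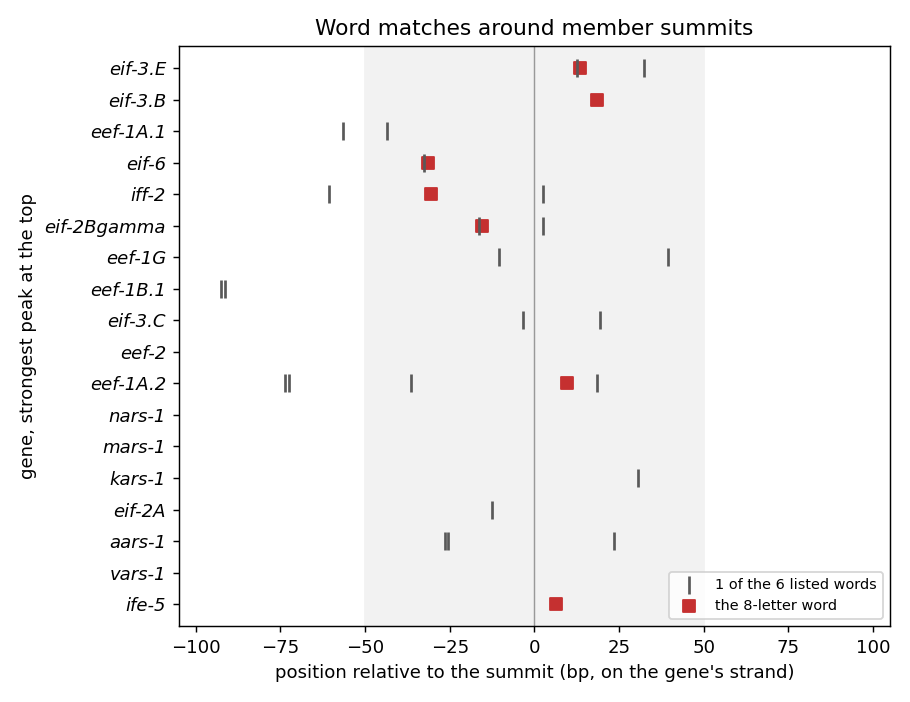
Positions in bp relative to the summit, on the strand of the gene, of matches to the 6 listed words (vertical ticks) and the 8-letter word (squares) at the 18 genes, strongest peak at the top. The shaded band is the 50 bp on either side used for the counts. Squares fall at 5 of the top 6 genes.

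Other genes of translation outside the name rule were taken from a list of 24 names, of which 23 were in the annotation. The list was chosen with earlier results of these data known, so its share with a peak is a description. Of these, 7 (30.4%) had a retained peak, against the background of 7.31%, with pooled values from 97.4 to 172 and a median of 125. The median of the whole IDR list was 144, and of the 7 only abcf-3 exceeded it. Among the stronger 50% of IDR peaks was the peak of 1 of the 23, against 4.77% of all genes. abcf-3, an ABC protein of the family that acts on ribosomes, had 84.2 in replicate 1 and 87.6 in replicate 2. pab-2, a poly(A)-binding protein gene, had 75.4 and 77.1 in replicates 1 and 2, while pab-1 had no retained peak. The replicates were alike at these genes. inf-1, the gene of the helicase eIF4A, had 25.3 in replicate 1 and 85.0 in replicate 2, and erfa-1, for the release factor, had 36.0 in replicate 1 and 93.0 in replicate 2. pek-1, an eIF2alpha kinase gene, had 31.6 in replicate 1 and 63.1 in replicate 2. These 3 were higher in replicate 2. abcf-1 (63.0 in replicate 1 and 47.6 in replicate 2) and tufm-2 (80.1 in replicate 1 and 37.5 in replicate 2) were higher in replicate 1. The summits of abcf-1, erfa-1 and tufm-2 also lay in the windows of scc-3, gad-1 and exoc-7. The release factor gene erfa-3, the kinases gcn-2, efk-1 and rsks-1, and let-363, the target of rapamycin gene, were among the 16 with no retained peak.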

How the data were processed

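Chromatin immunoprecipitation was measured in 2 replicates of 1 group. The authors deposited 4 peak lists on ce11, 1 per replicate, 1 from pooling them and 1 retained by IDR, and per the text deposited beside them the candidate lists derive from the alignments and a further file, common to both replicates, which the control-normalised signal also uses. The signal value of a region and its −log10 q are as the authors deposited them. Which aligner and peak caller were used, and the scale of signal values, is not given in the sources used here; depth is unknown. The members, gene list and 6-letter words were chosen with earlier results of these data known.

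Gene starts came from Ensembl release 115 on the 6 nuclear chromosomes, whose lengths in the RefSeq WBcel235 sequence contain all regions. A summit is the region start plus the offset. Where a gene had several summits, the strongest was used, and replicate values are of the nearest summit within 100 bp of the retained summit (250 bp for the other translation genes). For genes with no retained peak they are of the strongest candidate in the window. RefSeq supplied sequences and protein descriptions. Shares and medians stand beside the same over all protein-coding genes or peaks, with no test, as there is no contrast between groups. Named were every member with a retained peak, the 8 without one with the highest smaller replicate value, their complexes and paralogs, the listed translation genes with a peak, and genes that share a peak; the other members were named once. Counts were made with Python 3.11.15, numpy 2.4.6 and pandas 2.3.3, figures with matplotlib 3.10.9. Window and word rules were tested on simulated data. Alternatives were other windows, transcript starts, the nearest start alone, stricter peaks, either replicate alone, and other word windows.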

Additional observations from a re-analysis of the deposited data

How the results depend on the processing

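In a narrow window, 250 bp upstream and 50 bp downstream, 11 members had a retained peak (4.54% of all genes), of which 3 were elongation factors and 2 synthetases. It dropped eef-1A.1, eef-1A.2, eif-2A, eif-6, kars-1, mars-1 and nars-1, whose summits lie farther upstream. In that window 15 members had candidates in both replicates (9.7% of all genes), 2 retained peaks were shared with a second coding gene, and 4 other translation genes had a peak. A wide window, 1000 bp upstream and 250 bp downstream, gave 19 members (9.1% of all genes), adding eif-3.J, with a summit of 154 at -896 bp. With transcript starts the count was 18 (7.91%). With the nearest start alone it was 17 (5.84%), without eef-1A.1, and 4 other translation genes had a peak. With −log10 q of at least 2, and with the stronger 50% of peaks, it was 16 each (4.5% and 4.77%), without ife-5 and vars-1, and 1 other translation gene had a peak. Peaks in no other coding gene's window, chosen after seeing the data, left 11 of 71 members, against 871 of all 19973 genes. Leaving out each replicate gave 20 to 21 members (7.35% and 7.32%): the strongest regions of replicate 2 alone added hars-1 and iars-1, and those of replicate 1 alone added ears-2, eif-3.H and ife-2. In all, 9 of the 18 kept their peak under all 8 changes of window, start, peak strength and replicate. A listed word lay within 25 bp of 7 members' summits (22.6% of all IDR peaks), and the 8-letter word within 25 bp of 5 (3.67%). Within 100 bp the counts were 12 (49.2%) and 7 (6.34%). No paired analysis was possible because there is 1 group and nothing to pair. The lists hold no counts, so no limit from depth can be given for genes without a region.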

Other observations

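Some genes of the same machinery carry other names and were looked up after the members' values were seen. egl-45, which encodes eIF3 subunit A, cif-1, which encodes a subunit shared by eIF3 and the COP9 signalosome, and iffb-1, which encodes eIF5B, had no candidate region in the promoter window in either replicate. glp-4, which encodes a valine-tRNA ligase, had a retained peak of 174 with its summit 451 bp upstream. It had a candidate of 96.5 in replicate 2 and none in the window in replicate 1. The window ends 500 bp upstream, so a replicate 1 region just beyond it would not be counted. The coding gene Y87G2A.16 had a promoter peak of the same value, so the peak cannot be given to glp-4 alone.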
